A study of Mus musculus with 9 samples.

Results

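The epithelium of the colon renews itself from stem cells at the crypt bottom, which carry the receptor Lgr5, and its absorptive daughters, the enterocytes or colonocytes, complete their differentiation at the surface, where they take up water, salt and short-chain fatty acids. Here the 3 libraries of surface enterocytes were compared with the 3 libraries of Lgr5+ crypt-bottom cells, 6 of the 9 libraries in the series, across every gene with at least 1 TPM (transcript abundance per length, scaled to 1000000 per library) in 3 or more of the 9 libraries. The members are all the libraries that the labels give these 2 cell phenotypes, so no measured value chose them. Both came from adult female C57BL/6J mice, for which the labels name no transgene and no treatment. EDTA freed the crypts, DNase-I and collagenase-III broke them up, and live single cells negative for Cd3, Cd16/32, Cd31 and Cd45 were sorted by flow cytometry. The Lgr5-enriched gate was Epcam+ Cd44+ Kit-neg and the enterocyte-enriched gate was Epcam+ Cd44-neg Cd66a-high, Cd66a being the product of Ceacam1. The remaining population, goblet-enriched cells (Epcam+ Cd44+ Kit+), is not part of the contrast, but its libraries count in the filter and in the fit's estimate of the spread, and its levels are given for reference. A gate enriches for a cell type and does not isolate it, and a lower level in a bulk library cannot be told apart into fewer cells of a type or less RNA per cell. The series' text says that each replicate was sorted from an independent mouse and that the 9 samples stand for 3 mice. Values are listed in the order of replicates 1, 2 and 3, the crypt-bottom libraries before the enterocyte libraries, and means are given ± SD over n = 3 libraries.

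Sequencing depth, recovered from the deposited values, was 11200000 to 26800000 reads in genes per library, and 1 read in a transcript of 1 kb was worth 0.0958 to 0.208 TPM. Between 11999 and 12580 genes reached 1 TPM. Libraries of one population correlated with r between 0.955 and 0.983 (Lgr5-enriched) and between 0.957 and 0.982 (enterocyte-enriched), over the genes tested. Lgr5-enriched and enterocyte-enriched libraries correlated with each other with r between 0.843 and 0.92. Lgr5 replicate 1 held 49046 TPM of the ribosomal RNA precursor Rn45s, where the other 8 libraries held 2356 to 6009 TPM. The library labelled enterocyte replicate 1 held 0.128 TPM of Xist, against 110 to 204 TPM elsewhere, and 139 TPM summed over 4 Y-linked genes, against at most 0.325 TPM, which goes against its female label. The Lgr5-enriched and goblet-enriched libraries numbered 1 showed Xist and almost no Y-linked transcripts, so the libraries numbered 1 do not match a single mouse. It was the highest of the 3 enterocyte libraries for many of the genes named below, and values without it are given where they move by more than 1.5 times. In a principal component analysis component 3, with 11.4% of the variance, separated the libraries numbered 1 from those numbered 2 and 3 in each population.

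At an adjusted p under 0.05 (limma on log2(TPM + 1), Benjamini-Hochberg over all genes), 6396 of 12888 tested genes differed between the populations. Of these, 1549 were higher in enterocytes (12.0% of genes tested) and 4847 lower (37.6%). At least 2-fold differences on this scale were called for 782 genes higher (6.07%) and 2212 lower (17.2%). The median log2 fold change of all tested genes was -0.35. TPM sums to the same total in each library, and the genes called higher made up 12.8% to 15.5% of TPM in the Lgr5-enriched libraries and 32.9% to 41.0% in the enterocyte-enriched libraries. After median-of-ratios scaling, which sets the typical gene equal between libraries, the median was 0.02 and the split turned to 3033 higher (23.5%) and 2534 lower (19.7%). The higher genes were therefore 24.2% of all calls on TPM as deposited and 54.5% after scaling. All 1549 higher calls and 2534 of the 4847 lower calls were made in the same direction under both scalings, and 0 genes were called in opposite directions. A log2 fold change in the text is enterocyte-enriched over Lgr5-enriched on the log2(TPM + 1) scale, where changes of genes near 0 come out too small, and is to be read against -0.35. Of the genes named as called below, Tyrobp was the one whose crypt-bottom and enterocyte libraries overlapped. Of the called genes, 6328 had no overlap between the 3 and the 3 libraries, against 7976 of all tested genes. In the goblet-enriched libraries, 755 of the 1549 higher genes had a mean below that of Lgr5-enriched cells and 268 a mean above that of enterocytes, and 3735 of the 4847 lower genes had a mean between the other two.

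**Figure D1:**
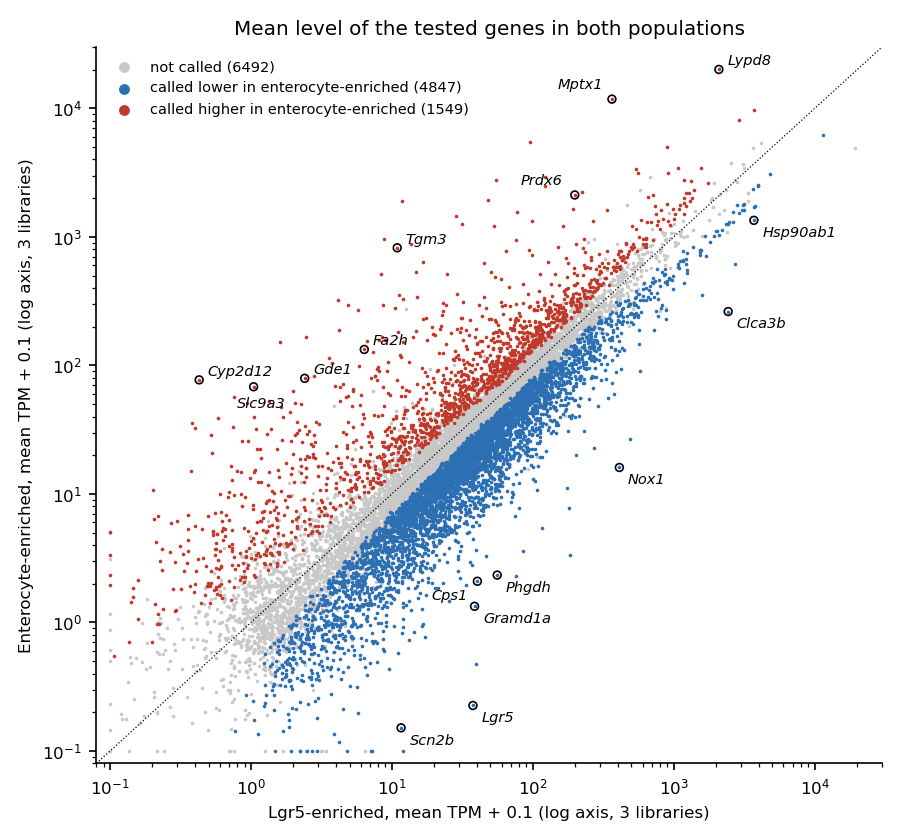
Mean TPM + 0.1 of each tested gene in the 3 Lgr5-enriched libraries (x axis, log) and the 3 enterocyte-enriched libraries (y axis, log), coloured by the call, with some named genes circled and the dotted line marking equal levels. Red points (1549) reach far above the line at every level, while the blue points (4847) form a broad band below it.

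The gene markers of both gates differed in the direction of the labels. Lgr5, the Wnt-potentiating receptor of crypt-bottom stem cells, was at 31.4, 37 and 44.1 TPM in the Lgr5-enriched libraries and 0.0442, 0 and 0.333 TPM in the enterocyte-enriched libraries. Ascl2, a transcription factor of the same cells, was at 30.4, 50.5 and 37.8 against 0, 0.36 and 0.757 TPM. Cd44, whose protein is the gate, stood at 89.3, 49.6 and 87.8 against 2.76, 1.28 and 2.5 TPM. Enterocytes held Krt20, the keratin of mature epithelium, at 1594, 421 and 623 TPM against 18.6, 8.02 and 13.9 TPM, and the chloride-bicarbonate exchanger Slc26a3 at 867, 366 and 364 against 12.4, 14.4 and 17.3 TPM. Car4, a membrane carbonic anhydrase, was at 7.22, 5.87 and 12.8 against 1992, 330.4 and 562 TPM. Without enterocyte replicate 1, the enterocyte means of Krt20 and Car4 were 522 and 446 TPM. None of these groups overlapped. Of the other gate antigens, Ceacam1 was at 1265, 1304 and 1418 against 3287, 2466 and 2390.4 TPM, and the groups did not overlap. Kit, absent from the protein gate of the Lgr5-enriched cells, was at 4.05, 11 and 11.6 against 18.1, 22.5 and 29.1 TPM, and at 168, 249 and 188 TPM in the goblet-enriched libraries. Epcam, shared by all gates, was at 1703, 2004 and 1889.6 against 2064, 2002 and 1922 TPM and was not called (it was called higher after scaling, with an adjusted p of 0.0228). Of 26 stem and crypt-base markers, 20 were tested, and 1 (5.0%) was called higher and 17 (85%) lower, or 1 and 17 after median-of-ratios scaling, and the median log2 fold change was -2.11. The 1 stem-list gene called higher was Aqp4, a water channel, at 319, 205 and 237 against 618, 553 and 545 TPM. Among 25 tested colonocyte markers of 28 listed, there were 24 (96%) higher and 0 lower calls, or 24 and 0 after scaling, around a median log2 fold change of 3.53.

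Transcripts of goblet cells were also higher in the enterocyte gate. The Lgr5-enriched gate left out Kit+ cells, which the goblet-enriched gate selects, while the label of the enterocyte-enriched gate names no selection on Kit. The part of the gates in the goblet marker difference was not tested. The goblet cell markers gave 18 (90%) higher and 0 lower calls among 20 tested, or 19 and 0 after scaling, with a median log2 fold change of 3.97. The number of calls moved to 1 lower with the replicate number as a block. Their summed share of TPM was 0.245% to 0.382% in the Lgr5-enriched, 2.07% to 2.63% in the enterocyte-enriched and 6.13% to 8.0% in the goblet-enriched libraries. Muc2, the gel-forming mucin, was at 39.1, 68.7 and 50.3 against 1321, 975 and 1326 TPM, and at 9639, 11551 and 13124 TPM in the goblet-enriched libraries. The goblet lineage factor Atoh1 was at 3.39, 6.42 and 5.77 against 55.5, 58.4 and 80.9 TPM, and at 367, 326 and 322 TPM in goblet-enriched libraries. Zg16, a lectin that binds gut bacteria, was instead higher in enterocytes (7864, 4900.4 and 3679 TPM) than in the goblet gate (119.9, 565 and 351 TPM), without overlap. The part of goblet cells in the other enterocyte-high genes was not tested, and goblet-enriched levels are given beside the genes with the largest rises.

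Markers of leukocytes were higher in some enterocyte libraries, and summed levels of enteroendocrine, tuft and stromal markers overlapped between the populations. Leukocyte markers summed to 3.45 to 17.9 TPM in the Lgr5-enriched and 17 to 258 TPM in the enterocyte-enriched libraries (3.1 to 5.2 and 4.18 to 25.9 TPM without the lysozyme Lyz2). Of 21 leukocyte markers, 4 were tested and 2 were called higher. Lyz2 was at 0, 12.7 and 9.07 against 232, 133 and 12.9 TPM, with an enterocyte mean of 72.9 TPM without enterocyte replicate 1. The adaptor Tyrobp was at 0, 0 and 0.314 against 11.8, 6.91 and 0.308 TPM, with an enterocyte mean of 3.61 TPM without that library. Neither call held without enterocyte replicate 1 (adjusted p 0.13 and 0.108), enterocyte replicate 2 (0.103 and 0.0944), Lgr5 replicate 1 (0.123 and 0.0718) or Lgr5 replicate 3 (0.0553 and 0.0604). The Lyz2 call was also lost without goblet replicate 3 (0.0504) and the Tyrobp call without Lgr5 replicate 2 (0.0737). The part of leukocytes in other enterocyte-high genes was not tested. Ptprc, which encodes the excluded Cd45, stayed at or below 0.153 TPM in these 6 libraries. Enteroendocrine markers summed to 230 to 396 against 199 to 325 TPM, tuft markers to 9.14 to 14.8 against 8.02 to 12.6 TPM, and stromal and endothelial markers to 23 to 39.6 against 30.3 to 40.5 TPM, and these ranges overlap. The tuft marker Trpm5, a cation channel, was at 0.197, 1.98 and 2.19 against 0.617, 2.08 and 2.07 TPM and was not called.

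Among called genes outside the marker lists (at least 10 TPM in the higher population, no overlap), the largest rise on the log2(TPM + 1) scale was that of Tgm3, a transglutaminase that cross-links proteins in cornifying epithelia. It stood at 2.82, 16.1 and 13.5 TPM in the Lgr5-enriched libraries and 949, 844 and 673 TPM in the enterocyte-enriched libraries (log2 fold change 6.38, SE 1.04, adjusted p 0.00117), and at a mean of 11.9 TPM in the goblet-enriched libraries. The groups did not overlap, and the lowest enterocyte library lay far above every other library. Pmp22, a small membrane protein first known from myelin, was at 5.58, 13.7 and 6.41 against 406, 301 and 179 TPM (log2 fold change 4.97, SE 0.48, adjusted p 0.000187), and the goblet gate held 6.95 TPM. Gde1, a glycerophosphodiester phosphodiesterase, was at 1.57, 3.37 and 1.97 against 82.7, 85.1 and 69.7 TPM, with little spread among enterocyte libraries (log2 fold change 4.63, SE 0.26, adjusted p 2.79e-05). Its goblet-enriched level was close, at 44.8, 84.5 and 56.1 TPM, so the enterocyte-enriched and goblet-enriched libraries both lay far above the crypt-bottom libraries. Sval1 followed the same pattern, at 19.7, 49.8 and 24.7 against 1381, 1258 and 1160.2 TPM and 1048, 1386 and 934 TPM in goblet-enriched libraries. Mptx1, a secreted pentraxin, was at 69.1, 576 and 446 against 6882, 12280.1 and 16199.8 TPM, and the goblet gate held 8738, 28439.8 and 36946 TPM. Rep15, an effector of the trafficking GTPase Rab15, had a mean of 114 ± 26.5 TPM in enterocytes, 3.45 ± 2.2 TPM in crypt-bottom cells and 156 ± 35.9 TPM in the goblet gate. The goblet-enriched mean of Mptx1 was 24708 TPM against 11787 TPM in enterocytes, and for both genes these populations stood above the crypt-bottom libraries.

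Several of the leading genes stood highest in enterocyte replicate 1. Atp12a, the catalytic subunit of the colonic proton-potassium pump, was at 3.66, 5.85 and 2.87 against 389, 96.3 and 78 TPM (enterocyte mean 87.1 TPM without that library). Spink1, a secreted trypsin inhibitor, was at 19.5, 16.6 and 13 against 1262, 334 and 313 TPM (324 TPM without it). Prss30, a membrane-anchored serine protease, was at 5.41, 2.95 and 5.92 against 579, 147 and 157 TPM (152 TPM without it). Ifit1bl1, of the interferon-induced tetratricopeptide family, was measured at 8.67, 1.3 and 7.02 against 583, 46.5 and 186 TPM (116 TPM without it). The goblet-enriched means of the 4 genes, in that order, were 2.73, 41.4, 4.33 and 5.34 TPM. In each of these 4 genes replicate 1 was the highest, yet the lowest enterocyte library remained above every Lgr5-enriched library, and the call held in every alternative, leaving out that library included. Nlrp9b, an intracellular sensor of viral RNA in intestinal epithelium, was at 0.974, 0.493 and 1.06 against 79.8, 31.8 and 40.2 TPM (log2 fold change 4.71, SE 0.45, adjusted p 0.000187). The goblet gate held 0, 0.17 and 1.97 TPM.

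On the crypt-bottom side the largest fall on the log2(TPM + 1) scale, among called genes outside the marker lists with at least 10 TPM and no overlap, was that of Nox1, the superoxide-producing NADPH oxidase of colonic epithelium. It stood at 762, 156 and 315 TPM in the Lgr5-enriched libraries and 27.7, 4.07 and 16.1 TPM in the enterocyte-enriched libraries (log2 fold change -4.63, SE 0.71, adjusted p 0.000848), and its Lgr5-enriched mean was 235 TPM without Lgr5 replicate 1, the highest library. Gramd1a, which carries cholesterol from the plasma membrane to the endoplasmic reticulum, was more even, at 45.6, 36.6 and 33.2 against 0.543, 1.41 and 1.75 TPM (log2 fold change -4.17, SE 0.24, adjusted p 2.79e-05). The goblet gate kept Gramd1a at 32.1, 30.6 and 25.1 TPM, close to the crypt-bottom level, and the same held for Prelp, a leucine-rich proteoglycan of the matrix (71.6, 80.9 and 103 against 1.62, 2.49 and 6.43 TPM, goblet-enriched 74.3, 66.2 and 77 TPM). Aqp1, a water channel, was at 99, 215 and 207 against 3.77, 10.4 and 19 TPM. The regulator of cell cycle Rgcc was at 133, 102 and 113 against 1.59, 6.5 and 8.01 TPM. Both were intermediate in the goblet gate, with means of 93 and 51.5 TPM. Cnn3, an actin-binding calponin, was at 371, 197 and 248 against 18.7, 16 and 33.2 TPM. Etv4, an ETS factor induced by receptor tyrosine kinase signalling, stood at 71.8, 67.4 and 101 against 1.69, 7.44 and 14 TPM.

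Genes of metabolism and of the cell surface were also among the largest falls. Cps1, the carbamoyl phosphate synthetase that opens the urea cycle, was at 61, 29.9 and 30 against 0.785, 2.08 and 3.1 TPM (log2 fold change -3.79, SE 0.37, adjusted p 0.000198). Phgdh, the first enzyme of serine synthesis, was at 81.1, 26.5 and 59.6 against 2.78, 0.852 and 3.07 TPM. The iron carrier transferrin, Trf, was measured at 355, 81 and 105 against 10.5, 4.6 and 7.77 TPM, with a crypt-bottom mean of 93 TPM without Lgr5 replicate 1. Ifitm3, a membrane protein that restricts virus entry, was at 933, 166 and 362 against 44.3, 8.05 and 28.2 TPM (264 TPM without Lgr5 replicate 1). The groups did not overlap for any of these 4 genes. Npy1r, a receptor for neuropeptide Y, was at 20.9, 36.4 and 42.3 against 0.277, 1.69 and 3.65 TPM. Scn2b, an accessory subunit of voltage-gated sodium channels, was at 8.15, 11 and 15.4 against 0.0456, 0.0318 and 0.0764 TPM. Vtcn1, an inhibitory ligand of T cells, was at 17.4, 15.3 and 18.7 against 0.238, 0.442 and 1.33 TPM. The 3 last-named genes stayed at or below 3.65 TPM in surface enterocytes and were below the crypt-bottom level in goblet cells, with goblet-enriched means of 7.4, 1.76 and 2.33 TPM.

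**Figure D2:**
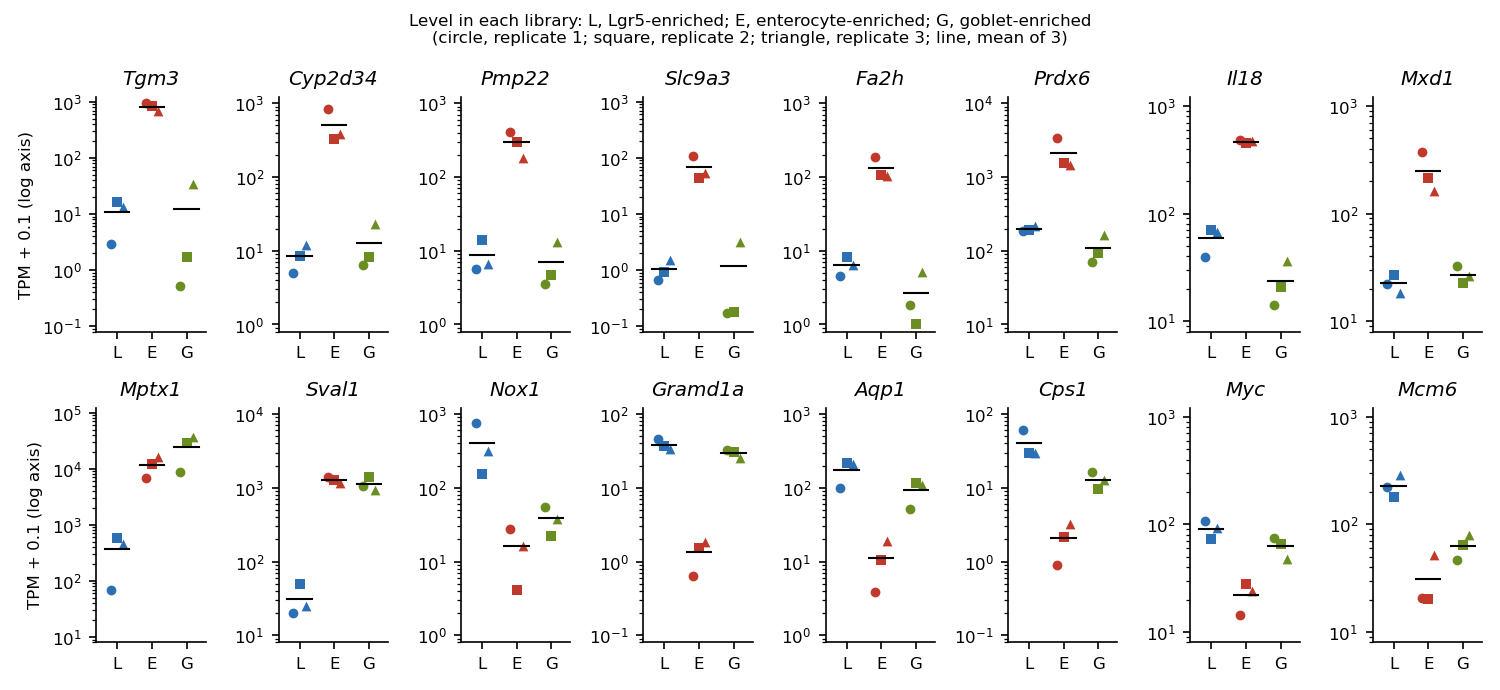
TPM + 0.1 (log axis, its own range in each panel) of 16 genes in every library of the Lgr5-enriched (L), enterocyte-enriched (E) and goblet-enriched (G) populations, with the replicate shown by the shape of the point and the mean of 3 by the line. In all 16 panels the L and E points do not overlap. The G points lie near or beyond the E points in Mptx1 and Sval1, and the G mean lies near the L points in panels such as Gramd1a, Tgm3 and Pmp22.

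Ranked by the difference in mean TPM, the genes that filled the enterocyte libraries were Lypd8, a surface protein that keeps flagellated bacteria off the epithelium, Mptx1, the keratins Krt8 and Krt19, Zg16, the mitochondrial creatine kinase Ckmt1, Plac8 and Guca2a, which encodes the gut hormone guanylin. Lypd8 was at 1950.3, 2025 and 2288 against 33388, 12191 and 14639.9 TPM, and the goblet gate held a mean of 1049.7 TPM. Ckmt1 was at 656, 1136 and 909.9 against 5294, 5182 and 4495 TPM, without overlap. Krt19 was at 2131, 3616 and 2934 against 9249, 7751 and 7484 TPM. Krt8 stood at 2513, 4712 and 3968 against 10289, 9862 and 9089 TPM, and its call was lost with quantile normalization (adjusted p 0.101). Plac8 was at 616, 476 and 537 against 5745, 1866 and 2503 TPM (2185 TPM without enterocyte replicate 1). Guca2a was measured at 34.7, 211 and 118 against 2044, 4302 and 2418 TPM. In the goblet gate the means were 853 (Ckmt1), 1445 (Krt19), 2511 (Krt8), 531 (Plac8) and 804 TPM (Guca2a), below the enterocyte means. In the other direction stood Rn45s, which was not called (adjusted p 0.291, or 0.0491 and called lower after quantile normalization), with a Lgr5-enriched mean of 4608 TPM without that library against 4882 TPM in enterocytes. The chaperone Hsp90ab1 was at 4076, 3461 and 3559 against 1117, 1338 and 1579 TPM (log2 fold change -1.47, SE 0.18, adjusted p 0.000333). Gpx2, the gastrointestinal glutathione peroxidase, was at 3687, 1897 and 2629 against 576, 472 and 803 TPM. Clca3b, of the calcium-activated chloride channel regulators, was at 2785, 1742 and 2759 against 455, 85 and 246 TPM. Ribosomal protein genes (Rps and Rpl) took 9.11% to 9.7% of TPM in the Lgr5-enriched and 3.74% to 6.15% in the enterocyte-enriched libraries. Of the 4 other leading genes, Rpl4 and Rpl32 had log2 fold changes of -1.15 and -1.17. Eef1a1 (-0.92) and Rplp1 (-0.66), a translation elongation factor and a stalk protein of the ribosome, lost their calls after median-of-ratios scaling (adjusted p 0.0679 and 0.288) and with no filter on low values (0.153 and 0.116). The Rplp1 call was also lost in the fit to the 6 libraries compared (0.0539) and without Lgr5 replicate 2 (0.053) or 3 (0.0633).

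Promoter sequence was set beside these calls, to see which promoter classes held the higher and the lower genes. Promoter windows of 250 bases before to 50 after the gene start (RefSeq, GRCm38.p6) matched 9735 of 12031 tested protein-coding genes (80.9%), of which 11.8% were called higher and 38.9% lower. Only 77.6% of the protein-coding genes called higher had a window, so shares are given per promoter class and not per called set. Of 45 genes with an HNF4 motif (CAAAGTCCA, both strands, in 0.474% of all promoters of that table), 14 were higher (31.1%) and 8 lower (17.8%), or 23 and 3 after median-of-ratios scaling. Cyp2c68, Cyp2c40 and Cyp2c65, related genes close together on chromosome 19, are among the 14, which are therefore not 14 separate loci. Of 306 genes with an E2F motif (TTTGGCGC or TTTCCCGC, both strands, in 1.63% of all promoters), 17 were higher (5.56%) and 182 lower (59.5%), or 44 and 114 after scaling. HNF4 factors are nuclear receptors of gut and liver epithelium and E2F factors drive S-phase genes, and a match here describes letters and not a bound site. The 4 windows that follow are from genes with large differences, printed 5′ to 3′ on the gene's strand with the motif in capitals, HNF4 in the first pair and E2F in the second, where the Cdca7 match reads on the opposite strand. They lie at chr6:41636356-41636655, minus strand (Trpv6), chr19:39741052-39741351, minus strand (Cyp2c68), chr1:128359656-128359955, minus strand (Mcm6) and chr2:72475969-72476268, plus strand (Cdca7).

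Trpv6: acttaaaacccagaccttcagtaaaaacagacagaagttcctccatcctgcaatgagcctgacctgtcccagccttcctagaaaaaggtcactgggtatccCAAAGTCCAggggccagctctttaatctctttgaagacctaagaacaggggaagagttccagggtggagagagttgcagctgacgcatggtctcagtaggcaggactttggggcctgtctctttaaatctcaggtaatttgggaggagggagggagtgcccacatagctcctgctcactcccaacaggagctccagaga
Cyp2c68: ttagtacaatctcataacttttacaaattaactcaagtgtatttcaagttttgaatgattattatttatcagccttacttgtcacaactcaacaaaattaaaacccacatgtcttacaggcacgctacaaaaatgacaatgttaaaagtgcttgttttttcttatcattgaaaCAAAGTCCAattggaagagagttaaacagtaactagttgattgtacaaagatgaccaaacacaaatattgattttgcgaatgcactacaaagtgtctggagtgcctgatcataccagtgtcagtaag
Mcm6: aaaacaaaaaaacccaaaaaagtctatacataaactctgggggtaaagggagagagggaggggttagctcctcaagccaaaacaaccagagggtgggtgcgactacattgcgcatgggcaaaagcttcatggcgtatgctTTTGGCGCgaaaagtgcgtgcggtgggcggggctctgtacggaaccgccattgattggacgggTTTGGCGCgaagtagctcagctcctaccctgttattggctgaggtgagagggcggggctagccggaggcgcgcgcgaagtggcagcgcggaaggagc
Cdca7: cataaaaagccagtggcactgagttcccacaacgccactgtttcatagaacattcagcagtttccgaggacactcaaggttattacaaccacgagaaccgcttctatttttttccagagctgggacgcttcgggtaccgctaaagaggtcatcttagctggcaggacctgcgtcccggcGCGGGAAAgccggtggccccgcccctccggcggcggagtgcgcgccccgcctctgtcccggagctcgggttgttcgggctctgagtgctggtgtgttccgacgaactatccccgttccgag

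Trpv6, the apical calcium channel, was at 1.28, 0.705 and 0.97 against 73.1, 7.18 and 15.2 TPM (11.2 TPM without enterocyte replicate 1). Cyp2c68, a P450 enzyme, stood at 6.66, 30 and 16.5 against 97.7, 244 and 132 TPM. Mcm6, a subunit of the replicative helicase, was at 221, 179 and 288 against 20.7, 20.1 and 52.2 TPM. Cdca7, a chromatin factor of dividing cells, was measured at 214, 181 and 212 against 17, 16.3 and 27 TPM. The groups did not overlap in any of the 4 genes, which were chosen for these differences after their values were seen. RNA of the factor Hnf4a was at 380.0, 516 and 472 against 635, 488 and 479 TPM and was not called (adjusted p 0.251, or 0.0119 and called higher after scaling). Calls also differed with the CpG content of the window, measured as the observed over the expected number of CpG. In the lowest tertile of genes by this ratio (0 to 0.65) 18.9% were higher and 28.3% lower, in the middle tertile (0.651 to 0.86) 9.34% and 40.4%, and in the highest tertile (0.86 to 1.44) 7.09% and 48.1%. After scaling, the shares were 31.2% and 15.3%, 22.2% and 20.2%, and 18.6% and 25.5%, so the order of the tertiles did not depend on the scaling. Other motifs, searched on both strands, were closer to the background: 6.83% higher and 45.0% lower for NRF1 (GCATGCGC, 542 genes), 16.3% and 33.1% for the TATA box (TATAAA, 729), 10.8% and 40.3% for CCAAT (3838), 14.4% and 38.8% for CDX (TTTATGG, 160) and 10.4% and 40.5% for the GC box (GGGCGG, 6258). One promoter can hold several of these motifs, and GC-rich motifs are commoner where CpG is high.

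**Figure D3:**
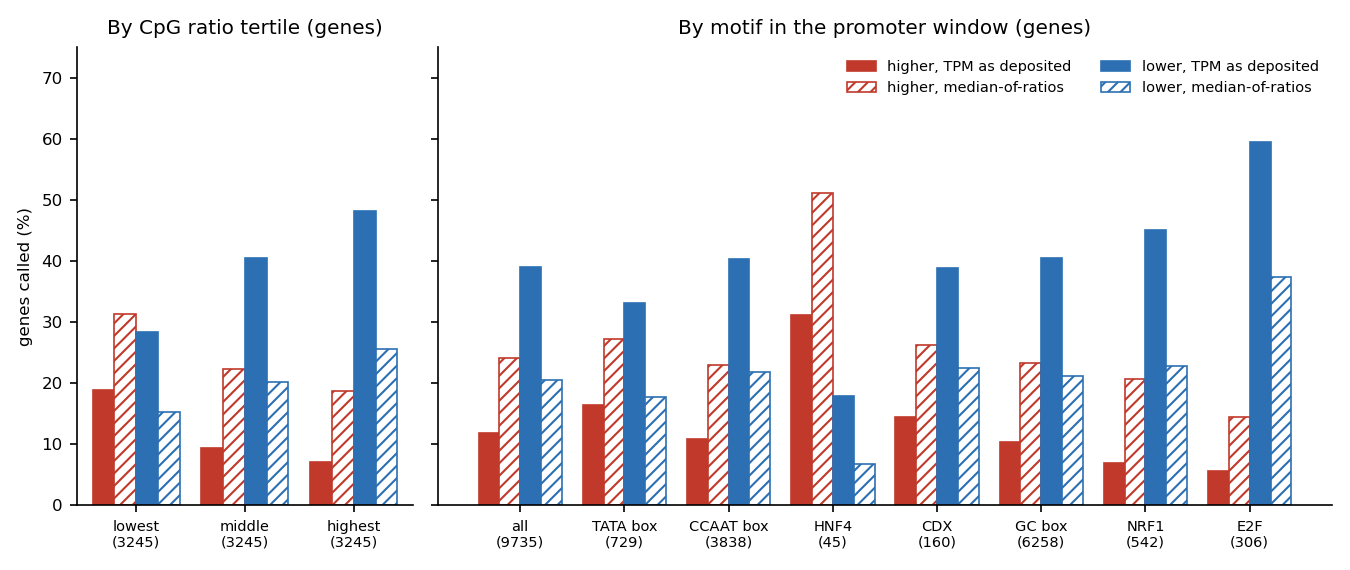
Share of genes called higher (red) and lower (blue) in enterocytes, on TPM as deposited (filled) and after median-of-ratios scaling (hatched), by tertile of the promoter CpG ratio and by motif in the promoter window, with the number of genes in brackets. The share of higher genes falls from 18.9% to 7.09% across the tertiles, and genes with an HNF4 motif (31.1% higher) and an E2F motif (59.5% lower) stand farthest from all genes with a promoter (11.8% and 38.9%).

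Transport genes rose and fell in large numbers, and read against 12.0% higher and 37.6% lower calls over all genes, carriers held a larger share of higher calls. Of 373 solute carriers, 238 were tested, and 64 (26.9%) were called higher and 52 (21.8%) lower, or 101 and 31 after median-of-ratios scaling, and the median log2 fold change was 0.00. The list is taken by symbol and includes the antisense RNA Slc13a2os. Slc9a3, the apical sodium-proton exchanger of salt absorption, was at 0.577, 0.828 and 1.43 against 107, 43.2 and 53.7 TPM (log2 fold change 5.06, SE 0.53, adjusted p 0.000231). Slc40a1, the iron exporter ferroportin, was at 8.93, 16.9 and 15.9 against 243, 134 and 124 TPM. Slc51b, a subunit of the basolateral bile acid exporter, was at 6.28, 8.03 and 8.73 against 124, 70.4 and 88.5 TPM. Slc6a14, an amino acid importer, was at 169, 236 and 206 against 1068, 853 and 739 TPM. All 4 were lower in the goblet gate than in enterocytes, with means of 1.09, 3.74, 3.38 and 27.6 TPM. Slc13a2, a sodium-coupled dicarboxylate carrier, was at 7.96, 10.7 and 12.6 against 415, 198 and 228 TPM, but its reads may be mixed with those of the overlapping antisense gene, since the strand setting of the counting is not given in the sources used here. The dipeptide carrier Slc15a1 was at 0.429, 0.462 and 0.568 against 68.3, 22.3 and 25.8 TPM (24.1 TPM without enterocyte replicate 1). The glucose-6-phosphate carrier Slc37a2 stood at 0.756, 2.0 and 1.8 against 258, 93.2 and 107 TPM (100.3 TPM without it). The goblet-enriched means of Slc13a2, Slc15a1 and Slc37a2 were 6.46, 0.351 and 1.94 TPM. Slc16a1, the monocarboxylate carrier that takes up butyrate, was already high in the crypt, at 96.9, 123 and 125 against 291, 275 and 252 TPM. The glucose carrier Slc5a1 was at 129.6, 151 and 153 against 122, 128 and 128 TPM and was not called (adjusted p 0.262).

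Other transporters were higher in crypt-bottom cells than in enterocytes. Slc12a2, the basolateral sodium-potassium-chloride cotransporter that feeds chloride secretion, was at 643, 498 and 584 against 72.2, 85.8 and 113 TPM (log2 fold change -2.67, SE 0.19, adjusted p 6.36e-05). Slc16a12, a creatine carrier of the monocarboxylate family, was at 33.9, 21.2 and 32.7 against 1.56, 1.72 and 3.92 TPM. Slc27a2, a fatty acid carrier and acyl-CoA synthetase, was measured at 82.2, 22.1 and 34.4 against 3.16, 2.71 and 3.63 TPM, with a mean of 28.2 TPM without Lgr5 replicate 1. None of these 3 overlapped between the groups. Among 29 tested ABC transporters of 50 listed, there were 9 (31%) higher and 7 (24.1%) lower calls, or 13 and 5 after scaling, around a median log2 fold change of 0.15. Abcg2, a drug and urate exporter, was at 10.2, 13.9 and 20.5 against 104, 58.1 and 50.9 TPM. Abcb1a, the drug exporter P-glycoprotein, was at 34.2, 103 and 78.4 against 177, 249.9 and 159 TPM. Abcc3, a basolateral exporter of conjugates, rose from 75 ± 12.9 TPM to 225 ± 40 TPM. Abcc4, an exporter of cyclic nucleotides and drugs, fell from 19.9 ± 1.72 TPM to 5.65 ± 2.03 TPM, and the cholesterol exporter Abca1 from 4.22 ± 0.997 TPM to 0.88 ± 0.261 TPM.

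Tested cytochrome P450 genes of 2 families, singled out after their values were seen, rose nearly throughout. Over all tested genes, 12.0% were called higher, or 23.5% after median-of-ratios scaling. A gene that reaches 1 TPM in the 3 enterocyte libraries alone passes the filter, while members low in all libraries drop out. The share of higher calls among tested members is therefore partly set by the filter. P450 enzymes oxidize drugs, fatty acids and steroids. The Cyp2d family had 9 of 10 symbols tested and 8 called higher under both scalings, the exception being Cyp2d26 (12.3, 30.3 and 31 against 24.2, 28.4 and 31.1 TPM). Its tested genes with a known position form a cluster on chromosome 15 (GRCm38, 82370527 to 82794294). Cyp2d34 (chr15:82615965-82620946) was at 4.84, 8.27 and 11.8 against 824, 330.0 and 384 TPM (log2 fold change 5.74, SE 0.50, adjusted p 0.000149), with a goblet-enriched mean of 12.5 TPM. Cyp2d13, which had no position in the annotation used, was at 0.989, 1.0 and 1.72 against 74.8, 42.8 and 41.4 TPM. Cyp2d12 (chr15:82555072-82560403) was at 0.295, 0.254 and 0.437 against 163, 36.7 and 31 TPM (33.8 TPM without enterocyte replicate 1), with a goblet-enriched mean of 0.692 TPM. Summed over the family, the levels were 23.1, 52 and 59.1 TPM in crypt-bottom cells, 1338, 529.6 and 596 TPM in enterocytes and 23.1, 33 and 57.7 TPM in the goblet gate. The sum is the safer value, because reads of near-identical copies may have been divided among them. The Cyp2c family (tested genes on chromosome 19, between 39007019 and 39886799) had 7 of 16 symbols tested and all 7 called higher under both scalings, with sums of 17.2, 75.7 and 39.9 against 423, 821 and 471 TPM. Cyp2c55 led it, at 2.5, 21.9 and 11.1 against 249, 475 and 263 TPM. Enterocyte replicate 1 had the highest Cyp2d sum and the lowest Cyp2c sum of its population, so the order of the libraries differed between the 2 families.

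Genes of lipid handling rose and fell. Beside them stand 12.0% higher and 37.6% lower calls over all tested genes, or 23.5% and 19.7% after median-of-ratios scaling. Of 46 genes of lipid droplets, triglycerides and lipoproteins, 32 were tested, and 12 (37.5%) were called higher and 7 (21.9%) lower, or 13 and 3 after median-of-ratios scaling, with a median log2 fold change of -0.03. The count changed to 7 higher without enterocyte replicate 2. Mgll, which splits monoglycerides, was at 0.745, 0.223 and 0.23 against 6.34, 7.67 and 5.83 TPM. Cideb, a lipid droplet protein of lipoprotein-making cells, stood at 3.35, 2.64 and 5.14 against 27, 10.6 and 15.3 TPM. Apobec1, the enzyme that edits apolipoprotein B mRNA, was at 8.54, 3.64 and 3.37 against 125, 29.4 and 36 TPM (32.7 TPM without enterocyte replicate 1). Fabp2, the intestinal fatty acid binding protein, was measured at 100.2, 214 and 192 against 319, 436 and 325 TPM. Fabp5, a relative of Fabp2, moved the other way, at 21, 10.6 and 16.6 against 1.96, 3.5 and 3.11 TPM, and so did Gpam, which starts glycerolipid synthesis (18.6, 46.7 and 45.7 against 6.14, 13.6 and 15.2 TPM). Among 33 tested genes of sphingolipid metabolism of 40 listed, there were 9 (27.3%) higher and 11 (33.3%) lower calls, or 14 and 7 after scaling, and the median log2 fold change was -0.02. Fa2h, which hydroxylates the fatty acids of ceramides, was at 4.42, 8.03 and 6.34 against 189, 106 and 104 TPM (log2 fold change 4.18, SE 0.42, adjusted p 0.000202). Acer1, a ceramidase, was at 6.94, 24.9 and 21.4 against 65.9, 104 and 76.5 TPM. Smpdl3a, a phosphodiesterase related to acid sphingomyelinase, was at 71.8, 91.7 and 89.7 against 583, 372 and 335 TPM. The 3 goblet-enriched means were all below the crypt-bottom means, at 2.57, 8.14 and 42.7 TPM. Degs1, the desaturase that finishes ceramide synthesis, fell from 38.6 ± 15.7 TPM to 12.9 ± 1.57 TPM. The peroxisomal genes gave 7 (16.3%) higher and 10 (23.3%) lower calls among 43 tested of 44 listed, or 20 and 4 after scaling, around a median log2 fold change of 0.00. Phyh, an enzyme of branched fatty acid oxidation, was at 107, 144 and 143 against 249, 273 and 256 TPM. Far2, a fatty acyl reductase, stood at 15.2, 9.84 and 11.5 against 2.08, 4.99 and 4.0 TPM.

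Among vitamin A genes, binding proteins moved in opposite directions. Of 32 genes of retinoid and vitamin D metabolism, 23 were tested, and 9 (39.1%) were called higher and 5 (21.7%) lower, or 11 and 2 after median-of-ratios scaling, with a median log2 fold change of 0.31. This count moved to 3 lower without Lgr5 replicate 3. Rbp2, the intestinal retinol binding protein, was at 1.14, 3.99 and 2.9 against 41.5, 23.7 and 20.2 TPM. Aldh1a1, which makes retinoic acid, was measured at 13.3, 11.6 and 11.1 against 56.8, 40.2 and 28.6 TPM. Dhrs9, a retinol dehydrogenase, was at 0.34, 0.293 and 0.189 against 31.4, 5.04 and 8.23 TPM (6.63 TPM without enterocyte replicate 1). Rbp7, another retinol binding protein, was at 16, 12.2 and 17.6 against 0.35, 1.95 and 2.05 TPM and was highest in crypt-bottom cells. Antioxidant genes went both ways as well, which is to be read against 12.0% higher and 37.6% lower calls over all tested genes. Among 37 tested antioxidant and glutathione genes of 40 listed, there were 7 (18.9%) higher and 14 (37.8%) lower calls, or 11 and 4 after scaling. The median log2 fold change was -0.34, close to the -0.35 of all tested genes. The numbers of calls moved to 4 higher without enterocyte replicate 1 and to 9 lower without enterocyte replicate 3. Prdx6, a peroxiredoxin that also repairs membrane lipids, was at 187, 192 and 215 against 3359, 1553 and 1438 TPM (log2 fold change 3.30, SE 0.37, adjusted p 0.000263). Prdx5 was at 159, 218 and 208 against 655, 533 and 519 TPM. Against these stood the fall of Gpx2, given above, of Prdx4, the peroxiredoxin of the endoplasmic reticulum (137, 118 and 144 against 31.2, 34.5 and 47.5 TPM), and of Gclm, a subunit of the enzyme that starts glutathione synthesis (142, 111 and 143 against 55.2, 49.7 and 61 TPM). Nfe2l2, the master regulator of many of these genes, was not called (231, 297 and 283 against 179, 272 and 249.9 TPM, adjusted p 0.361).

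At the cell surface, several peptidases of the brush border rose. The shares to set beside the lists here are 12.0% higher and 37.6% lower over all tested genes. After median-of-ratios scaling they were 23.5% and 19.7%. Of 33 membrane peptidases, 25 were tested, and 10 (40%) were called higher and 1 (4.0%) lower, or 11 and 1 after median-of-ratios scaling, around a median log2 fold change of 0.12. The counts changed to 2 lower without enterocyte replicate 1, to 3 lower without goblet replicate 1 and to 6 lower with the replicate number as a block. Dpep1, a dipeptidase, was at 7.09, 30.8 and 31.1 against 261, 349 and 303 TPM. Mep1a, a subunit of the metalloprotease meprin, stood at 8.65, 48.1 and 35 against 207, 214 and 162 TPM. Mep1b, its other subunit, was at 7.58, 13.8 and 13.3 against 164, 100.3 and 82.5 TPM. Dpp4, a serine peptidase that cleaves incretins, stood apart from them and fell, at 42, 48.8 and 53.5 against 13.8, 22.4 and 25 TPM. Among 14 tested serpins and other protease inhibitors of 31 listed, there were 7 (50%) higher and 2 (14.3%) lower calls, or 8 and 1 after scaling, with a median log2 fold change of 0.77. This count moved to 1 lower without enterocyte replicate 1, enterocyte replicate 2, goblet replicate 2, goblet replicate 3, Lgr5 replicate 1 or Lgr5 replicate 3. Serpinb1a, an inhibitor of neutrophil proteases, was at 152, 173 and 192 against 959, 529 and 563 TPM. Timp3, an inhibitor of matrix metalloproteases, was measured at 21.3, 73.1 and 49.6 against 2.36, 11.1 and 10.5 TPM. The S100 genes gave 6 (66.7%) higher and 0 lower calls among 9 tested of 17 listed, or 6 and 0 after scaling, and the median log2 fold change was 1.07. S100a6, a calcium-binding protein, was at 888, 1379 and 966 against 3532, 3653 and 3037 TPM. S100a10, the partner of annexin A2, was at 629.7, 556 and 444 against 1337, 1129.8 and 963 TPM. Of 12 annexins, 10 were tested, and 5 (50%) were called higher and 2 (20%) lower, or 6 and 1 after median-of-ratios scaling, around a median log2 fold change of 0.35. Anxa3 was at 60.4, 71.9 and 47.6 against 356, 283 and 229.9 TPM. Anxa2 stood at 691, 791 and 599.9 against 1489, 1301 and 1091 TPM, while Anxa6 fell from 14.3 ± 3.93 TPM to 2.57 ± 0.328 TPM. Lgals3, a galectin that binds glycans of the apical surface, was at 332, 853 and 482 against 3389, 3508 and 2595 TPM (log2 fold change 2.60, SE 0.39, adjusted p 0.000776).

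Some adhesion and motor genes of the brush border rose. Most tested members of both lists were not called higher on TPM as deposited, but most were after median-of-ratios scaling (63.6% and 60.0%). Over all tested genes, 12.0% were called higher and 37.6% lower, or 23.5% and 19.7% after scaling. Among 22 tested cadherin and desmosome genes of 33 listed, there were 8 (36.4%) higher and 2 (9.09%) lower calls, or 14 and 1 after scaling, with a median log2 fold change of 0.26. The numbers of calls moved to 5 higher without enterocyte replicate 1, enterocyte replicate 2, Lgr5 replicate 1 or Lgr5 replicate 3, to 1 lower without enterocyte replicate 3, Lgr5 replicate 1 or Lgr5 replicate 3 and to 4 lower with the replicate number as a block. Cdhr5 and Cdhr2 encode the protocadherins that link microvilli, and both rose. Cdhr5 was at 84.1, 194 and 175 against 1076, 720.5 and 699 TPM. Cdhr2 was measured at 53.9, 118 and 104 against 434, 339.9 and 309 TPM. Cdh17, the liver-intestine cadherin, was at 282, 295 and 270.4 against 721, 497 and 462 TPM. Cdh1, the cadherin of all epithelial junctions, was not called (813, 991 and 840.2 against 934, 1081 and 859 TPM, adjusted p 0.587, or 0.0339 and called higher after scaling). The myosin genes gave 9 (36%) higher and 3 (12%) lower calls among 25 tested of 38 listed, or 15 and 1 after scaling, and the median log2 fold change was 0.15. This list is taken by symbol and also holds the kinase Mylk and the ubiquitin ligase Mylip. Myo1a, the main motor of the brush border, was at 208, 297 and 269.6 against 798, 611 and 581 TPM. Myh14, a nonmuscle heavy chain, was at 93.4, 183 and 129.6 against 485, 453 and 339 TPM.

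Among signalling molecules, single members moved much farther than the medians of their lists. For comparison, 12.0% of all tested genes were called higher and 37.6% lower, or 23.5% and 19.7% after median-of-ratios scaling. Of 60 cytokines and receptors, 46 were tested, and 16 (34.8%) were called higher and 10 (21.7%) lower, or 23 and 5 after median-of-ratios scaling, around a median log2 fold change of 0.26. Il18, an inflammasome-activated cytokine, was at 39.7, 70.5 and 67 against 478, 449 and 472 TPM (log2 fold change 3.00, SE 0.32, adjusted p 0.000235), with a goblet-enriched mean of 23.7 TPM. Il1rn, the antagonist of interleukin 1, was at 20.7, 42.2 and 22.1 against 117, 149 and 81.7 TPM. Il22ra1, the epithelial receptor for interleukin 22, stood at 15.1, 12.4 and 11.2 against 43.5, 24 and 23.1 TPM. Tnf, the inflammatory cytokine, was at 345, 116 and 99.5 against 30.5, 42 and 43.6 TPM (108 TPM without Lgr5 replicate 1) with a goblet-enriched mean of 246 TPM. Tnfsf9, a ligand of the same family, fell from 6.54 ± 4.07 TPM to 1.0 ± 0.18 TPM. Among 37 tested pattern recognition and inflammasome genes of 46 listed, there were 9 (24.3%) higher and 7 (18.9%) lower calls, or 16 and 6 after scaling, with a median log2 fold change of 0.09. The count changed to 5 higher without enterocyte replicate 1. Beside Nlrp9b, Naip1, of the NAIP family of bacterial sensors, was at 29.3, 35.1 and 37.1 against 187, 105 and 109 TPM. The inflammasome sensor Nlrp1b was measured at 1.51, 3.83 and 4.51 against 14.3, 9.67 and 11.5 TPM. The receptors of bacterial peptidoglycan went down: Nod1 was at 52.5, 44.9 and 61.6 against 9.09, 12.6 and 17.4 TPM. Nod2 was at 11.1, 7.5 and 9.56 against 2.34, 2.38 and 1.96 TPM. So did the DNA sensor pair, Mb21d1 (cGAS) at 10.5, 7.73 and 11.8 against 1.61, 1.16 and 2.36 TPM. Tmem173 (STING) stood at 60, 32.2 and 34 against 11.6, 10.2 and 12.9 TPM. The semaphorin, plexin and netrin genes gave 6 (21.4%) higher and 10 (35.7%) lower calls among 28 tested of 42 listed, or 8 and 8 after scaling, and the median log2 fold change was 0.03. Plxnb1, a semaphorin receptor, was at 9.07, 12.9 and 13.6 against 0.798, 1.16 and 1.72 TPM. The semaphorin Sema7a was measured at 15.6, 6.87 and 8.02 against 0.445, 2.04 and 0.0532 TPM. Another semaphorin, Sema4c, was at 9.998, 13.3 and 11.9 against 0.776, 1.89 and 3.08 TPM, and it fell as well. Unc5b, a netrin receptor that can signal death without ligand, was at 4.8, 10.5 and 6.59 against 53.1, 37.8 and 32.6 TPM.

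Among the lists of transcription factors, the MYC network held the largest share of higher calls and the Zfp genes the smallest. Over all tested genes, 12.0% were called higher and 37.6% lower, or 23.5% and 19.7% after median-of-ratios scaling. The higher shares of nuclear receptors (13.9%) and Kruppel-like factors (13.3%) were near that of all genes. Of 48 nuclear receptors, 36 were tested, and 5 (13.9%) were called higher and 8 (22.2%) lower, or 11 and 3 after median-of-ratios scaling, around a median log2 fold change of -0.30. Nr1h4, the bile acid receptor FXR, was at 38.5, 33.1 and 36.2 against 110.2, 83.5 and 76.2 TPM. Nr3c2, the mineralocorticoid receptor that governs sodium uptake, was at 21.8, 40.6 and 32.8 against 76.4, 78.7 and 70.7 TPM. Nr1i3, a xenobiotic receptor, was at 0.474, 0.584 and 0 against 4.27, 5.23 and 6.16 TPM. Vdr, the vitamin D receptor, was not called (274, 375 and 463 against 335, 256 and 299.7 TPM, adjusted p 0.39). Among 15 tested Kruppel-like factors of 17 listed, there were 2 (13.3%) higher and 2 (13.3%) lower calls, or 3 and 1 after scaling, with a median log2 fold change of -0.42. These counts moved to 1 lower without enterocyte replicate 1, Lgr5 replicate 2 or Lgr5 replicate 3, to 4 lower without goblet replicate 1 and to 7 lower with the replicate number as a block. Klf4, a factor of epithelial maturation, was at 224, 249.7 and 224 against 1089.5, 916 and 875 TPM (log2 fold change 2.04, SE 0.13, adjusted p 3.89e-05). Klf5, its proliferative counterpart, stood at 517, 581 and 550.5 against 508, 448 and 476 TPM without a call (adjusted p 0.245). The genes of the MYC network gave 4 (30.8%) higher and 6 (46.2%) lower calls among 13 tested, or 5 and 5 after scaling, and the median log2 fold change was -0.35. Myc itself, the driver of growth, was at 108, 72.7 and 92.3 against 14.3, 27.8 and 23.7 TPM. Mycl was measured at 31.4, 48.6 and 56.7 against 6.47, 10 and 13.3 TPM. Mxd1, which competes with Myc for Max and represses, was at 22.2, 26.8 and 18.4 against 370.3, 214 and 160.3 TPM (log2 fold change 3.34, SE 0.29, adjusted p 0.000142), whereas Mxd3, the family member of S phase, fell from 14.8 ± 4.72 TPM to 3.42 ± 1.52 TPM. Mlxipl, the glucose-responsive factor ChREBP, was at 62.1, 114 and 112 against 9.41, 16.9 and 23.9 TPM. Of 368 zinc finger genes with a Zfp symbol, 315 were tested, and 2 (0.635%) were called higher and 185 (58.7%) lower. After median-of-ratios scaling 9 (2.86%) were higher and 77 (24.4%) lower, so the lower share came near the 19.7% of all tested genes. The median log2 fold change on TPM as deposited was -0.67. The numbers of calls moved to 1 higher without enterocyte replicate 1 or Lgr5 replicate 3, to 5 higher with the replicate number as a block and to 123 lower without Lgr5 replicate 3. The 2 higher calls were Zfp385b (1.83) and Zfp37 (0.75). Zfp367 and Zfp275 had log2 fold changes of -2.20 and -1.92, and Zfp36, an mRNA decay factor, one of 0.03 without a call.

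The machinery of growth fell as a group. Over all tested genes, 37.6% were called lower and 12.0% higher, or 19.7% and 23.5% after median-of-ratios scaling. Counts here and in the next paragraph are to be read against these shares. All 36 listed genes for S phase and for copying DNA were tested, and 0 were called higher and 36 (100.0%) lower, or 0 and 36 after median-of-ratios scaling, with a median log2 fold change of -2.11. Among the 30 genes of G2/M and mitosis, all tested, there were 0 higher and 30 (100.0%) lower calls, or 0 and 29 after scaling, and the median log2 fold change was -2.14. Ccna2, a cyclin of S and G2 phase, was at 141, 91.1 and 105 against 22, 12.2 and 23.6 TPM. Mki67, the Ki-67 antigen, was at 221, 195 and 226 against 35.3, 31.7 and 52.9 TPM. Enterocytes kept a measurable level of both, and the goblet gate lay in between, with means of 49.2 and 119 TPM. The genes of purine and pyrimidine synthesis gave 0 higher and 26 (89.7%) lower calls among 29 tested, or 1 and 21 after scaling, around a median log2 fold change of -1.28. Cad, the enzyme that starts pyrimidine synthesis, was at 45.3, 54.7 and 71.2 against 8.72, 12.4 and 17.7 TPM. Rrm1, a subunit of ribonucleotide reductase, stood at 124, 81 and 131 against 26.8, 18.2 and 32.1 TPM. Of 34 genes of nucleotide breakdown and extracellular nucleotidases, 28 were tested, and 8 (28.6%) were called higher and 5 (17.9%) lower, or 14 and 3 after median-of-ratios scaling, with a median log2 fold change of 0.34. Entpd8, an ectonucleotidase, was at 26.5, 78.2 and 74.4 against 229, 159.8 and 157 TPM. Uridine phosphorylase Upp1 was measured at 33.4, 13.2 and 10.8 against 461, 44.5 and 89.2 TPM, with an enterocyte mean of 66.8 TPM without enterocyte replicate 1 and a log2 fold change of 1.84 instead of 2.79.

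Among 34 tested genes of ribosome biogenesis of 35 listed, there were 0 higher and 33 (97.1%) lower calls, or 0 and 32 after scaling, and the median log2 fold change was -1.60. Gnl3, the nucleolar GTPase nucleostemin, was at 164, 125 and 129 against 16, 40.4 and 35.1 TPM. Npm1, nucleophosmin, was at 1119, 723 and 796 against 167, 251 and 275 TPM. The crypt-bottom and enterocyte libraries did not overlap for either. The host genes of small nucleolar RNAs gave 0 higher and 12 (80%) lower calls among 15 tested of 16 listed, or 0 and 7 after scaling, around a median log2 fold change of -0.99. Snhg12 was at 133, 144 and 159.6 against 19.6, 52.9 and 61.5 TPM. Gas5 stood at 234, 224 and 239 against 66.1, 107 and 114 TPM. Of 46 hnRNP, SR and related splicing factors, 45 were tested, and 0 were called higher and 39 (86.7%) lower, or 1 and 28 after median-of-ratios scaling, with a median log2 fold change of -0.90. Srsf7 was at 242, 199 and 219 against 56.5, 92.4 and 99.3 TPM. Syncrip was measured at 99.5, 72.2 and 71.8 against 19.7, 27.3 and 30.2 TPM. Esrp2, the epithelial splicing regulator, was not called (46.8, 79 and 59.8 against 62.2, 86.2 and 79.5 TPM), but it was called higher after scaling (adjusted p 0.00832) and with array weights (0.0375). Among the 30 nucleoporin genes, all tested, there were 0 higher and 28 (93.3%) lower calls, or 1 and 21 after scaling, and the median log2 fold change was -1.20. The count changed to 1 higher with the replicate number as a block. Nup210, a membrane-spanning nucleoporin, was at 42.8, 36.1 and 46.7 against 4.11, 5.38 and 10.4 TPM (log2 fold change -2.57, SE 0.31, adjusted p 0.000348). Sec13, which also serves the COPII coat, was not called (187, 169 and 179 against 209.6, 195 and 221 TPM), but it was called higher after scaling (adjusted p 0.00416), with the replicate block (0.0483), with array weights (0.0374) and with limma-voom on recovered reads (0.0454). The genes of chromatin assembly and repressor complexes gave 0 higher and 34 (77.3%) lower calls among 44 tested of 45 listed, or 1 and 27 after scaling, around a median log2 fold change of -1.36. This count moved to 1 higher with the replicate number as a block. Uhrf1, the partner of the maintenance methyltransferase Dnmt1, was at 92.7, 87.2 and 144 against 11.6, 8.02 and 29.3 TPM. Dnmt1 was at 73.7, 77.6 and 123 against 18, 17 and 28.9 TPM. Ezh2, the Polycomb methyltransferase, was at 81.8, 68.3 and 88.1 against 20.8, 23.6 and 26.9 TPM. The nucleosome binding protein Hmgn1 stood at 429, 322 and 382 against 43.2, 56 and 80.4 TPM. Every lower call made after scaling was among those made on TPM as deposited.

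Protein turnover genes did not move in one direction. The counts of this paragraph are to be read against 12.0% higher and 37.6% lower calls over all tested genes. After median-of-ratios scaling these shares were 23.5% and 19.7%. Higher calls of autophagy genes (15.6%, or 20.0% after scaling) and both calls of polyamine genes (16.7% and 41.7%) lay near them. Among the 45 autophagy genes, all tested, there were 7 (15.6%) higher and 9 (20%) lower calls, or 9 and 4 after scaling, with a median log2 fold change of -0.14. The numbers of calls moved to 4 higher without Lgr5 replicate 3 and to 16 lower with the replicate number as a block. Map1lc3b, the LC3 protein of autophagosomes, was at 146, 187 and 160.3 against 156, 177 and 157 TPM, and was called higher only after scaling (adjusted p 0.0244). Optn, an autophagy receptor, was at 21.5, 23.2 and 21.6 against 54.7, 44.1 and 35 TPM. The tripartite motif (Trim) genes gave 14 (32.6%) higher and 14 (32.6%) lower calls among 43 tested of 67 listed, or 17 and 9 after scaling, and the median log2 fold change was -0.06. Trim35 fell from 31 ± 3.19 TPM to 3.81 ± 0.687 TPM, and Trim6 rose from 2.36 ± 0.502 TPM to 13.6 ± 5.47 TPM. Of 16 genes of polyamine metabolism, 12 were tested, and 2 (16.7%) were called higher and 5 (41.7%) lower, or 2 and 3 after median-of-ratios scaling, around a median log2 fold change of -0.10. The count changed to 1 higher without enterocyte replicate 1, Lgr5 replicate 2 or Lgr5 replicate 3. Among 17 tested circadian clock genes of 20 listed, there were 3 (17.6%) higher and 1 (5.88%) lower calls, or 4 and 1 after scaling, with a median log2 fold change of -0.14. These counts moved to 1 higher without enterocyte replicate 1, to 5 higher with the replicate number as a block, to 2 lower without enterocyte replicate 2 and to 2 lower with the replicate number as a block. The forkhead genes gave 1 (4.76%) higher and 10 (47.6%) lower calls among 21 tested of 46 listed, or 3 and 3 after scaling, and the median log2 fold change was -0.47. The numbers of calls moved to 0 higher without enterocyte replicate 1, enterocyte replicate 2, goblet replicate 2, goblet replicate 3, Lgr5 replicate 1 or Lgr5 replicate 3 and to 6 lower without enterocyte replicate 1 or Lgr5 replicate 2. This list is also taken by symbol and holds the antisense RNA Foxd2os. Of 21 tetraspanins, 15 were tested, and 3 (20%) were called higher and 3 (20%) lower, or 4 and 2 after median-of-ratios scaling, around a median log2 fold change of -0.23. The count changed to 6 lower with the replicate number as a block. Among 9 tested galectins of 10 listed, there were 3 (33.3%) higher and 2 (22.2%) lower calls, or 4 and 2 after scaling, with a median log2 fold change of 0.17. This count moved to 1 higher without enterocyte replicate 1 or Lgr5 replicate 3. The UDP-glucuronosyltransferases gave 0 higher and 2 (25%) lower calls among 8 tested of 18 listed, or 3 and 2 after scaling, and the median log2 fold change was -0.05. The numbers of calls moved to 1 higher without enterocyte replicate 3, goblet replicate 1 or goblet replicate 3 and to 1 higher with the replicate number as a block. Tspan1, a tetraspanin of secretory and absorptive cells, was at 645, 675 and 651 against 2581, 1764 and 1775 TPM, all enterocyte libraries above all crypt-bottom libraries. Clock, of the core circadian pair, was at 96.6, 84.8 and 77.6 against 32.7, 37.7 and 37.8 TPM. Srm, the spermidine synthase, was at 64.6, 65.9 and 73 against 19.6, 23.6 and 30.4 TPM.

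**Figure D4:**
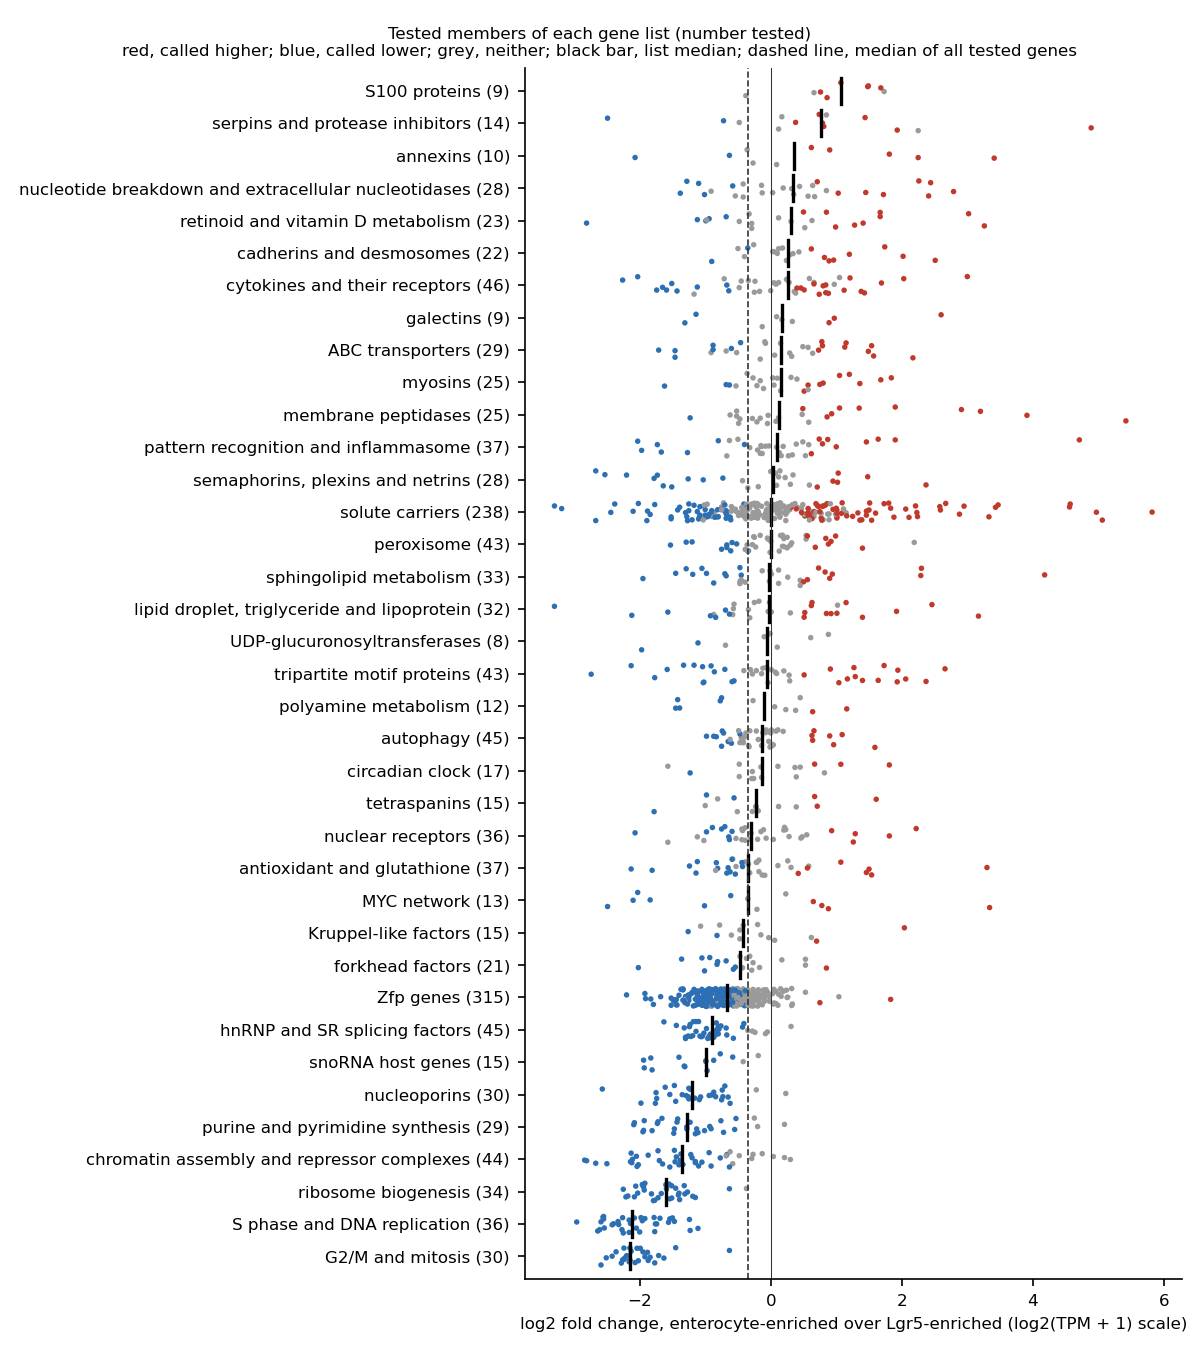
Log2 fold change of each tested member (points; red called higher, blue called lower, grey neither) of the gene lists, ordered by the list median (black bar), with the dashed line at -0.35, the median of all tested genes. Lists of proliferation, ribosome biogenesis, chromatin, nucleotide synthesis and RNA processing lie to the left of the line, with medians between -2.14 and -0.90, while transport, lipid and surface lists spread to both sides.

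**Figure D5:**
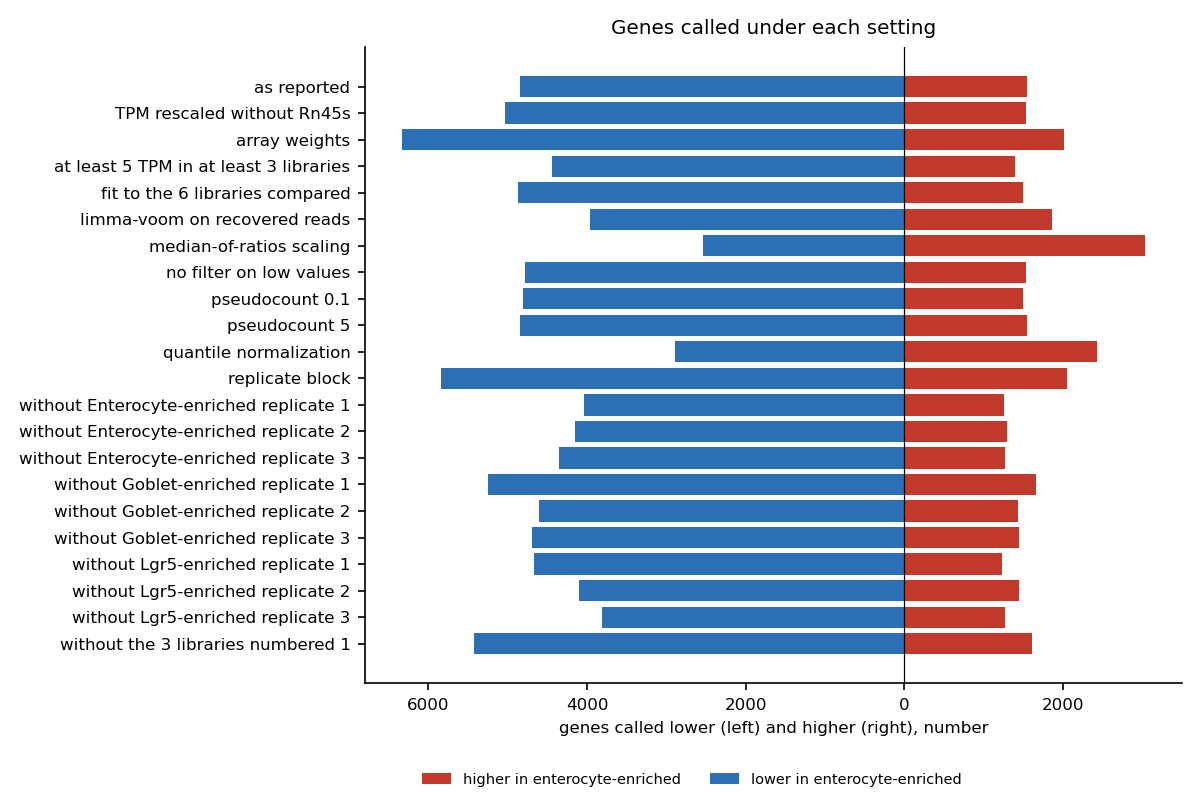
Number of genes called higher (right, red) and lower (left, blue) in enterocytes under the setting reported in the text (top bar) and each alternative. Median-of-ratios scaling (3033 higher, 2534 lower) reverses the balance and quantile normalization (2424 and 2887) narrows it. Every alternative except median-of-ratios scaling keeps more lower than higher calls.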

How the data were processed

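RNA of 9 sorted libraries, 3 populations with 3 replicates each, was sequenced after poly-A selection, per the labels' protocols. The authors deposited 1 table of log2 values per gene symbol, log2(TPM) from a TPM of 1 upwards and TPM - 1 for lower values, per the file itself. Cufflinks and the build mm10 are named in the submitters' processing notes. The aligner and the strand setting of the counting are not stated in the labels used here. These labels name more than 1 instrument and sequencing layout, but not which library was run on which. Whether the libraries numbered 1 differ from the others in this is not known. The values were turned back into TPM, and each library then summed to 1000000. Of 24421 symbols, 18396 were above 0 and 12888 reached 1 TPM in at least 3 libraries and were tested. Whole reads could be recovered for 18386 genes (99.95%), to a tolerance of 1e-06 of a read that widened in proportion to larger counts. Lengths up to 20000 bases were tried, and the depths given are lower bounds. limma-voom on these reads, an alternative chosen after seeing the data, called 5829 genes. Intervals between libraries cover the spread between these 3 and 3 libraries only.

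The main test was limma 3.58.1 (R 4.3.3) on log2(TPM + 1) with an intensity trend, fitted to all 9 libraries so that they share 1 estimate of the spread, with Benjamini-Hochberg adjustment over all genes tested and a threshold of 0.05. The goblet-enriched libraries therefore enter the spread but not the contrast. The script was tested on simulated data. Deviations from the group means correlated between same-numbered Lgr5-enriched and enterocyte-enriched libraries (r of 0.348, 0.488 and 0.235 over genes), so the replicate numbers were treated as pairs in a block fit. The series' text ties replicates to mice, but the sex-linked transcripts of the library labelled enterocyte replicate 1 do not match those of the other libraries numbered 1, so for that number the pair cannot be 1 mouse as labelled. That fit is given beside a result where it changes the call or moves a count by more than 1.5 times. Alternatives were other pseudocounts, filters, scalings and weights, the 6 libraries alone, the block, and leaving libraries out. The lists, the populations compared and the rules were chosen with earlier results of these data known. Genes are named if they mark the gates, if they are among the 15 largest changes in each direction (called, at least 10 TPM in the higher population, no overlap, a given gene name, outside the marker lists), among the 8 largest differences in TPM in each direction, among the leading members of a list, or needed to describe it. The text gives values for part of the genes this rule allows. Promoters came from RefSeq tables and gene positions from the GENCODE annotation of the same build.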

Additional observations from a re-analysis of the deposited data

How the results depend on the processing

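Scaling decided the balance of the calls. With median-of-ratios scaling 3033 genes were higher and 2534 lower, and at least 2-fold differences were called for 1386 and 1139 genes. With quantile normalization 2424 were higher and 2887 lower, 1268 of them at least 2-fold lower. With a pseudocount of 5, which shrinks folds of low genes by construction, 1314 were at least 2-fold lower. Leaving out 1 library at a time gave 5078 to 6907 calls, 1230 to 1661 higher and 3804 to 5246 lower, and 657 to 857 and 1861 to 2442 at 2-fold. With the replicate number as a block 7891 genes were called, and of the genes named the block changed the call of Sec13 alone. Of 178 tested genes named, 164 were called, 158 of them under every alternative that kept the gene (21, or 20 where a stricter filter removed it), and 0 reversed. The calls of Eef1a1 and Rplp1 were lost after median-of-ratios scaling and with no filter, and that of Krt8 after quantile normalization. Slc5a1, Vdr and Klf5, not called in the text, were called lower without the 3 libraries numbered 1 and with array weights. The call of Lyz2 was lost with a pseudocount of 0.1, with no filter and with limma-voom, and that of Tyrobp with no filter and in the fit to 6 libraries. The cause of these changes was not tested. Fold changes of genes below about 1 TPM rest on few reads, and 3 libraries per population limit what a missed threshold can show.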
